A study of Mus musculus with 6 samples.

Results

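The 38 genes described here are the p53 pathway and DNA damage targets in liver tumors of WT and Nr2e3-/- mice. They were taken by name from a list that covers p53 and its regulators, the kinases that signal DNA damage, and the targets that p53 is known to switch on. All 38 were found among the 24063 genes of the count table, and all 38 passed the filter on low counts that left 13572 genes for testing.

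Liver tumors of 6 male mice, 3 WT and 3 Nr2e3-/-, each gave 1 RNA-seq library. Every mouse had been given diethylnitrosamine (DEN), a carcinogen that liver cells turn into a DNA-damaging agent, as a single intraperitoneal dose of 25 mg per kg at 15 days of age, and tumors were taken at the 24-week time point. The Nr2e3-/- mice lack this orphan nuclear receptor in the whole body, so the loss is not limited to hepatocytes. Both groups carried DEN-induced tumors, and no liver without DEN was compared, so each value below is a difference between tumors of 2 genotypes and not a response to DEN.

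p53, the product of Trp53, is a transcription factor that is held at a low level by MDM2, a ubiquitin ligase whose own gene p53 activates. DNA breaks and stalled replication forks activate the kinases ATM, ATR and CHK2, which phosphorylate p53 and release it from MDM2. The freed protein then activates genes that stop the cell cycle, kill the cell, or repair the damage, and much of this control acts on the protein rather than on Trp53 mRNA. In liver, p53 is a tumor suppressor, and its target Cdkn1a is a well-known brake on hepatocyte division.

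Total counts were 25250090 to 28690279 in WT and 15376261 to 28336305 in Nr2e3-/- libraries. Nr2e3 had 0 counts in all 6 libraries, where 3 counts, the limit that a count of 0 allows, correspond to 0.105 to 0.195 CPM (counts per 1000000 of the library total) and cover counting error only, so the knockout could not be checked from its own mRNA. Nr2e3-/- replicate 1 stood apart from the other 2 Nr2e3-/- libraries. On the leading principal component, which held 57.2% of the variance, it lay at -11.1, beside the WT libraries at -26.0 to -18.3 and away from replicates 2 and 3 at 43.7 and 33.7. On the next component it lay at -27.6, outside the WT range of 0.671 to 18.0, with replicates 2 and 3 at 18.6 and -17.0. It was also the library with the fewest total counts, 15376261. Hepatocyte markers were high in every library, with summed levels of 119959 to 155715 CPM over 8 of 8 genes. Marker sums, here and below, are CPM after TMM scaling of the library size. In bulk tissue, fewer cells of a type and less RNA per cell cannot be told apart. Because nothing in the sources states litters or separate days, p-values below measure the spread between these libraries.

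No member passed an adjusted p of 0.05 in edgeR's quasi-likelihood test with Benjamini-Hochberg adjustment over all tested genes, where 13 genes, 0.0958% of those tested, did so. At an unadjusted edgeR p under 0.05, 4 members were higher in Nr2e3-/- tumors (Trp53, Cdkn1a, Fas and Sesn2), against a background of 11.8% of all tested genes in that direction. By the same rule 2 members were lower (Atm and Gadd45a), against 9.72% of all tested genes. With upper quartile scaling 4 members were higher and 4 lower, where 8.12% of all tested genes were higher and 13.1% lower. Under the reported scaling the 6 members were 15.8% of the list, and 21.5% of all tested genes had an unadjusted p under 0.05, so the list as a whole was not richer in such genes than the table. The members split evenly, with 19 log2 fold changes above 0 and 19 below, and their median was -0.016 beside 0.0073 for all tested genes. The smallest adjusted p of a member was 0.117, for Cdkn1a, and no member had a p under 0.0005, against 69 of all tested genes. Only Cdkn1a combined a change of at least 2-fold with an unadjusted p under 0.05, which 706 of all tested genes did.

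The groups did not overlap for 7 members that were higher in Nr2e3-/- tumors (Trp53, Ppm1d, Cdkn1a, Fas, Triap1, Sesn2 and Ninj1), where 13.9% of all tested genes showed such a pattern. They did not overlap for 2 members that were lower, Ddb2 and Ercc5, where 12.9% of all tested genes did. The plot of fold changes by role shows that most of the 95% intervals of single members reach across 0.

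**Figure D1:**
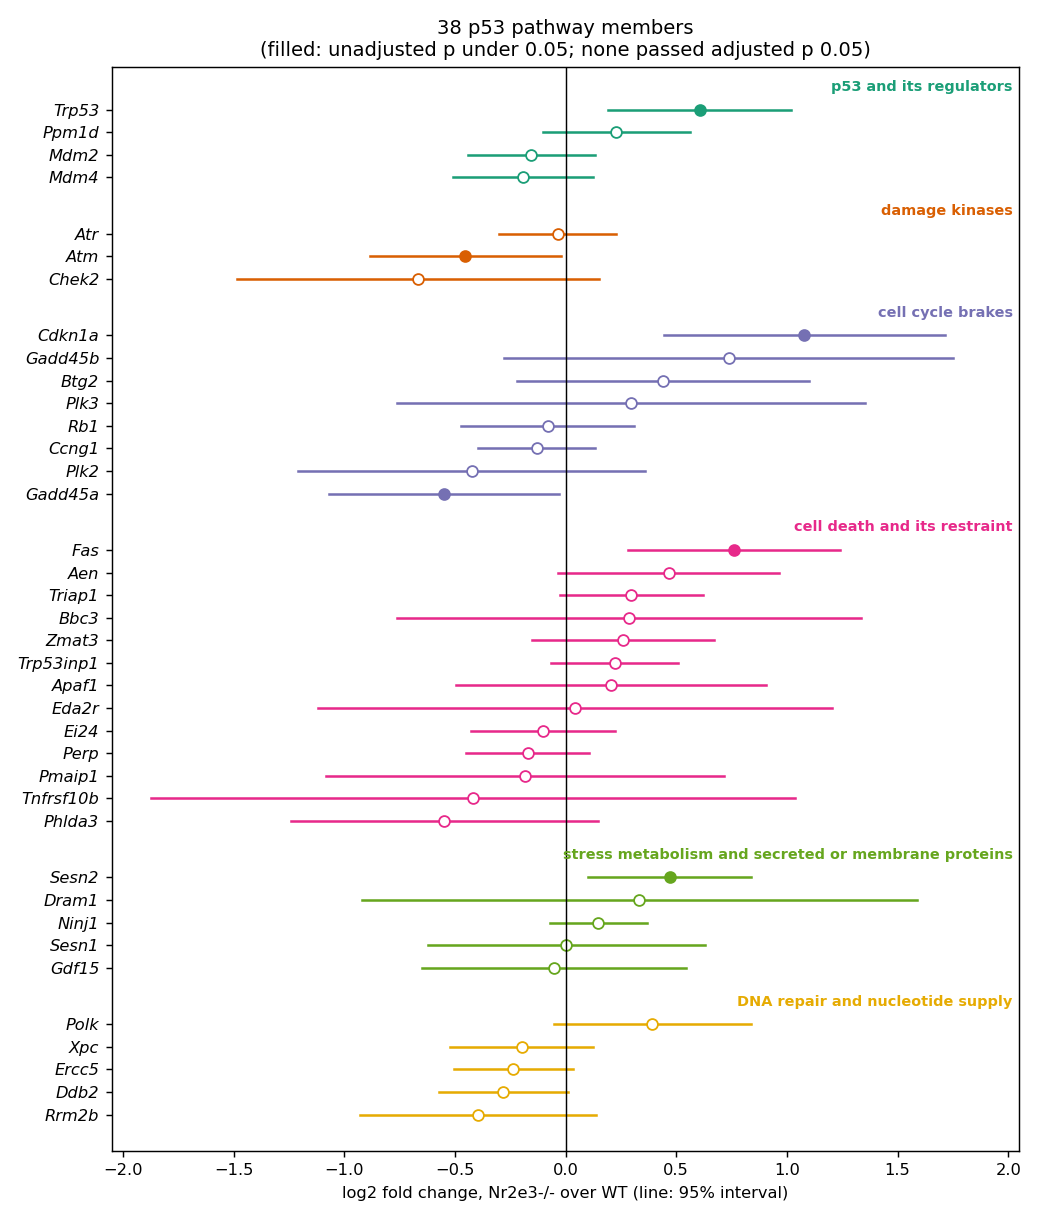
Log2 fold change of each of the 38 members, Nr2e3-/- over WT (x axis), with its 95% interval as a line, grouped by role (colors). Filled points mark the 6 members with an unadjusted edgeR p under 0.05, and Cdkn1a at 1.08 and Chek2 at -0.67 are the ends of the range.

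The promoters of the members that the results turn on are shown here, because p53 acts on its targets by binding DNA, in some of them near the start site. The sequences are RefSeq windows on GRCm38.p6 from 250 bases before to 50 bases after a start, read 5′ to 3′ on the strand of the gene. Capitals mark the p53 decamer, the repeated unit of the p53 consensus, in Cdkn1a, Trp53 and Mdm2. It was searched as RRRCWWGYYY, where R is A or G, W is A or T and Y is C or T. In Fas capitals mark the STAT element (TTCNNNGAA), and in Sesn2 the GC box (GGGCGG, the site of Sp1). No p53 decamer was found in the Fas and Sesn2 windows. The motif marked in each gene was chosen by hand, so GC boxes in the Cdkn1a downstream, Mdm2 and Fas windows are not marked. Cdkn1a has 2 windows, one at an upstream start (chr17:29090729-29091028, plus strand) and one at a downstream start (chr17:29093519-29093818, plus strand) in which no p53 decamer was found. The others are Trp53 (chr11:69580109-69580408, plus), Mdm2 (chr10:117710709-117711008, minus), Fas (chr19:34290409-34290708, plus) and Sesn2 (chr4:132510407-132510706, minus).
Cdkn1a upstream: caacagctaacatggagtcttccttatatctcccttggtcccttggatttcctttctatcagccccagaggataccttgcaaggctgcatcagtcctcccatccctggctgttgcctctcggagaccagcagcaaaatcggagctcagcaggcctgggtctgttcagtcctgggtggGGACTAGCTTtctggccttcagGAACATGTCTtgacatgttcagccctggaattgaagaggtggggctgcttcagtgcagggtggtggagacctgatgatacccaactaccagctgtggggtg
Cdkn1a downstream: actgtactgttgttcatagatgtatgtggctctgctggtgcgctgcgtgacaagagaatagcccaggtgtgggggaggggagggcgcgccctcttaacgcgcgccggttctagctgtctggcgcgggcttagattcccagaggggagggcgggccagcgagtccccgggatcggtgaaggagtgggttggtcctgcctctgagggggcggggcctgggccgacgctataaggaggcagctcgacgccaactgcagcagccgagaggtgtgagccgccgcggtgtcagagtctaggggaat
Trp53: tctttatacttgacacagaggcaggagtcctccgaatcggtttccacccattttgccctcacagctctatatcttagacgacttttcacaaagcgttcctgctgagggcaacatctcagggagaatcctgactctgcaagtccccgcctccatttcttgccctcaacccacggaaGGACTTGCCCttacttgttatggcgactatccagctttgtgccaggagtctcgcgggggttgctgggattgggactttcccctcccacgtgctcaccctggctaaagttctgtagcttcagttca
Mdm2: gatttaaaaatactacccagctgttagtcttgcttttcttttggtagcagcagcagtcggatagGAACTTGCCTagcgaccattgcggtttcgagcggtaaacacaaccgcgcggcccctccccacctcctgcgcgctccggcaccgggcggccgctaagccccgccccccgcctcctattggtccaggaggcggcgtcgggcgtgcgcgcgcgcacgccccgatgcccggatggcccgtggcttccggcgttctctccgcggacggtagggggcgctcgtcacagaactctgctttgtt
Fas: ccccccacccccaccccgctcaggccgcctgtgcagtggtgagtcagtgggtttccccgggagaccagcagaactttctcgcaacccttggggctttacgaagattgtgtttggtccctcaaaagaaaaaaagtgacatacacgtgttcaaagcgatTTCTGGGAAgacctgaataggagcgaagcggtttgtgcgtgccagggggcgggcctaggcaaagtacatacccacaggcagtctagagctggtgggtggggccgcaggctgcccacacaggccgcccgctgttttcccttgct
Sesn2: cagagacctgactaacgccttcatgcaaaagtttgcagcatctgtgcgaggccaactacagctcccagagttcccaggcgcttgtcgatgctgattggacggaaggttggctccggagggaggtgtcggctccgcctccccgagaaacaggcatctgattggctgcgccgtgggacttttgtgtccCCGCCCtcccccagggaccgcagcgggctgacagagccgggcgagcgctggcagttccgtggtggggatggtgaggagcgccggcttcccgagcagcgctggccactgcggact

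Both strands were searched. A p53 decamer was found in 10 of the 29 members that have a window (34.5%), beside 9.55% of all genes with one. Those members were Aen, Ccng1, Cdkn1a, Ei24, Gadd45a, Mdm2, Polk, Ppm1d, Sesn1 and Trp53, so they included genes that were higher, lower and near 0 in Nr2e3-/- tumors. The upstream Cdkn1a window was the only member window with 2 decamers separated by 0 to 13 bases, an arrangement found in 24 of 32851 windows (0.0731%). The bases directly after its downstream decamer, tgacatgttc, depart from the pattern only at their first base. They were therefore neither counted nor marked. A GC box lay in 23 of 29 members (79.3%) and in 38.2% of all genes. The STAT element lay in 2 of 29 members (6.90%), Fas and Polk, and in 9.55% of all genes. The members were listed by name, many of them as known p53 targets. The background is all 27025 genes with a window, many of which were not tested here. The shares of members and of all genes therefore do not compare like with like, for the decamer, the GC box or the STAT element. A match is a description of letters, not of binding, and the windows do not hold elements farther from the start.

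Trp53 itself and the phosphatase gene Ppm1d were higher in every Nr2e3-/- library than in any WT library, and both MDM genes were a little lower on average. Trp53 (chromosome 11, 69580359 to 69591873, plus strand; GRCm38 with GENCODE M21, as for all positions below) was at 17.4, 15.7 and 15.4 normalized CPM in WT replicates 1 to 3 and at 18.5, 26.7 and 28.6 in Nr2e3-/- replicates 1 to 3. Normalized CPM are CPM after TMM scaling of the library size. The groups did not overlap, but Nr2e3-/- replicate 1 lay close to the WT range and the other 2 libraries well above it. Trp53 had a log2 fold change of 0.61 (SE 0.18, n = 3 and 3; edgeR adjusted p = 0.136). A processed Trp53 pseudogene is known in mouse, and how reads shared with it were counted is not given in the sources used here.

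Mdm2 (chromosome 10, 117688875 to 117710758, minus strand), the ubiquitin ligase that degrades p53 and a classic p53 target, was at 40.8, 36.0 and 33.7 normalized CPM in WT and at 29.6, 34.0 and 35.6 in Nr2e3-/- libraries. The groups overlapped, and the lowest level was in Nr2e3-/- replicate 1. The log2 fold change of Mdm2 was -0.15 (95% interval -0.44 to 0.13; edgeR adjusted p = 0.479), so an increase of the size fitted for Trp53 lies outside its interval. Mdm4, the MDM2 partner that masks the activation domain of p53, had a log2 fold change of -0.19 (95% interval -0.51 to 0.12).

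Ppm1d (chromosome 11, 85311244 to 85347066, plus strand), which encodes the WIP1 phosphatase that switches off ATM and p53, was at 6.41, 6.46 and 6.69 normalized CPM in WT and at 6.95, 8.20 and 7.73 in Nr2e3-/- tumors. All 3 Nr2e3-/- libraries were above all 3 WT libraries, by a small margin in replicate 1. Ppm1d had a log2 fold change of 0.23 (SE 0.14; edgeR adjusted p = 0.376).

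The 3 damage kinases all had log2 fold changes below 0. Atm (chromosome 9, 53439149 to 53536740, minus strand), the kinase activated by double-strand breaks, was at 19.3, 17.0 and 25.1 normalized CPM in WT and at 17.5, 13.7 and 13.7 in Nr2e3-/- tumors. The groups overlapped through WT replicate 2 and Nr2e3-/- replicate 1, and WT replicate 3 was the highest of the 6. The log2 fold change of Atm was -0.45 (SE 0.18; edgeR adjusted p = 0.216). Chek2, the checkpoint kinase downstream of ATM, was scarce at 1.81 ± 0.509 normalized CPM in WT (SD, n = 3) and 1.15 ± 0.356 in Nr2e3-/- tumors, with a log2 fold change of -0.67 and an interval of -1.49 to 0.15. Atr, the kinase of stalled forks, had a log2 fold change of -0.035 (95% interval -0.30 to 0.23).

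**Figure D2:**
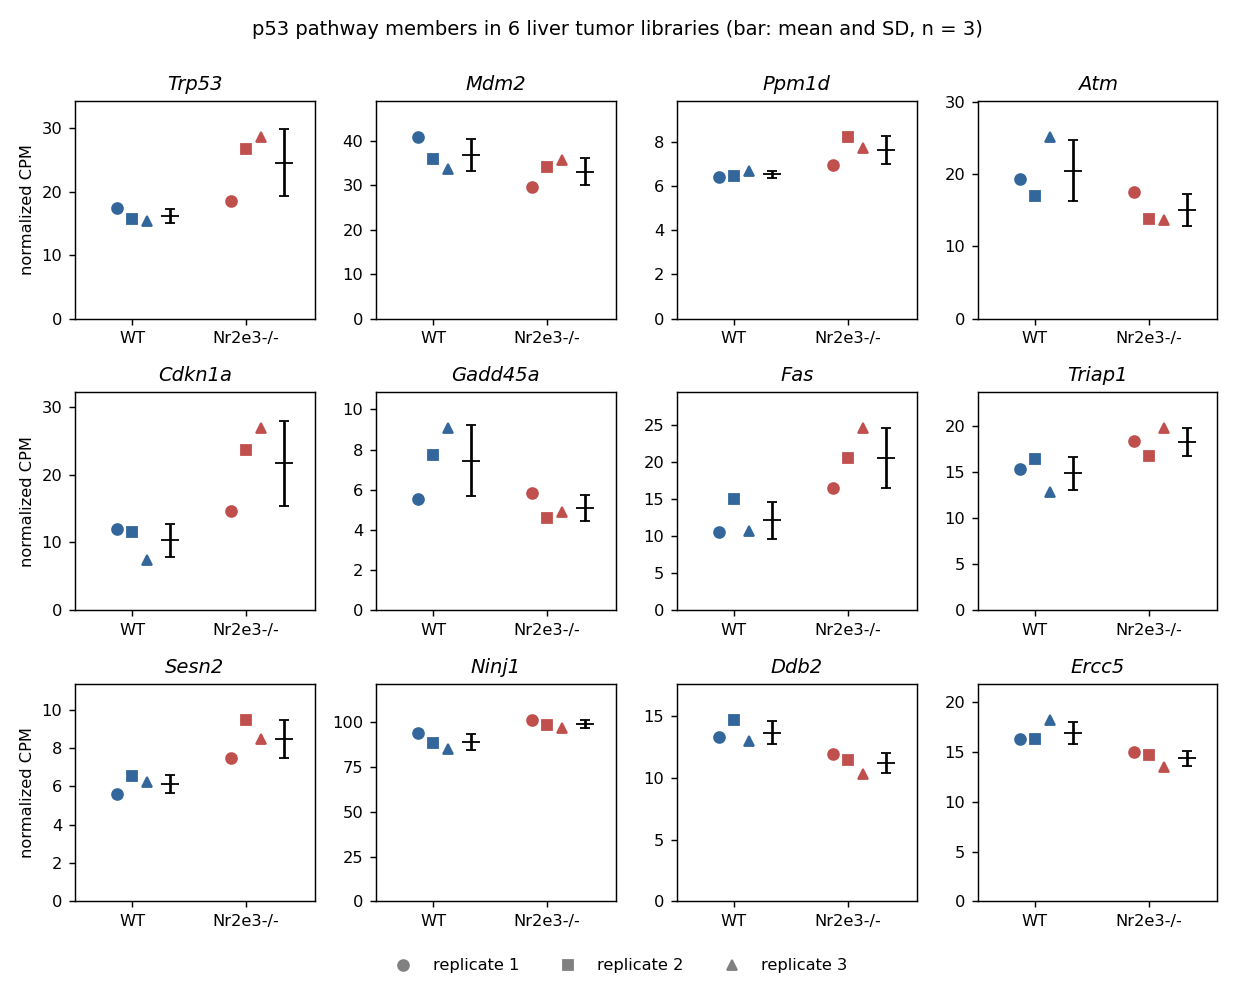
Normalized CPM (y axis, from 0) of 12 members in each of the 6 libraries; point shapes mark the replicate number and the black bar is the mean with SD (n = 3). For Trp53, Cdkn1a and Fas the highest 2 points are Nr2e3-/- replicates 2 and 3, and Mdm2 has its highest point in WT replicate 1.

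Among the 8 cell cycle brakes, Cdkn1a was higher and Gadd45a lower at an unadjusted p under 0.05, and the median log2 fold change was 0.11. Cdkn1a (chromosome 17, 29090976 to 29100727, plus strand) encodes p21, the inhibitor of cyclin-dependent kinases through which p53 arrests cells. It was at 11.9, 11.5 and 7.46 normalized CPM in WT and at 14.6, 23.6 and 26.8 in Nr2e3-/- tumors. The groups did not overlap, and the gap between WT replicate 1 and Nr2e3-/- replicate 1 was small beside the distance of the other 2 Nr2e3-/- libraries. The log2 fold change of Cdkn1a was 1.08 (SE 0.27, 95% interval 0.44 to 1.71; edgeR adjusted p = 0.117), the largest of the 38. Its exons share 273 bases with a gene on the opposite strand, and reads of the 2 cannot be told apart where counting ignored strand, a setting not given in the sources used here. Exons of Atr, Ei24, Plk3, Rb1 and Rrm2b also share bases with genes on the opposite strand.

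Gadd45a (chromosome 6, 67035096 to 67037457, minus strand), a damage-inducible gene that holds cells before mitosis, went the other way. It was at 5.53, 7.75 and 9.05 normalized CPM in WT and at 5.83, 4.60 and 4.87 in Nr2e3-/- tumors. WT replicate 1 lay below Nr2e3-/- replicate 1, so the groups overlapped. The log2 fold change was -0.55 (SE 0.22; edgeR adjusted p = 0.213), and Gadd45a exons share 337 bases with E230016M11Rik on the opposite strand. Its relative Gadd45b had a log2 fold change of 0.74 but an interval of -0.28 to 1.75. Gadd45b was at 1.57 to 2.20 normalized CPM in WT, at 3.56 and 4.11 in Nr2e3-/- replicates 2 and 3, and lowest of all, at 1.19, in replicate 1.

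The other cell cycle members did not reach an unadjusted p of 0.05. Btg2, an antiproliferative gene, had a log2 fold change of 0.44, Plk3, a stress-activated polo-like kinase, 0.30, and Plk2, its relative, -0.42. Ccng1, a cyclin long known as a p53 target in liver, was at -0.13 with a narrow interval of -0.39 to 0.13, and Rb1, the retinoblastoma protein that p21 keeps active, at -0.081. Plk3 varied widely between libraries, from 29.7 normalized CPM in Nr2e3-/- replicate 1 to 104 in replicate 2.

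The 13 genes of cell death and its restraint had 8 log2 fold changes above 0 and 5 below, and their median was 0.21. Fas (chromosome 19, 34290666 to 34327772, plus strand), the death receptor through which lymphocytes can kill hepatocytes, was at 10.6, 15.1 and 10.8 normalized CPM in WT and at 16.5, 20.5 and 24.6 in Nr2e3-/- tumors. The groups did not overlap. The log2 fold change of Fas was 0.76 (SE 0.20, 95% interval 0.28 to 1.24; edgeR adjusted p = 0.127). The other death receptors of the list had wider intervals, which hold the Fas value: Tnfrsf10b, the TRAIL receptor, was at -0.42 (95% interval -1.87 to 1.04) and Eda2r, the ectodysplasin receptor, at 0.042 (95% interval -1.12 to 1.20).

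The BH3-only genes, whose products trigger mitochondrial death, gave no difference beyond their spread. Bbc3 (PUMA) had a log2 fold change of 0.29 that rested on Nr2e3-/- replicate 1, at 5.16 normalized CPM, while the other 5 libraries lay between 1.71 and 2.44. Without that library its log2 fold change was -0.41. Pmaip1 (NOXA) had a log2 fold change of -0.18, and Apaf1, the scaffold of the apoptosome, 0.21. Bax, the mitochondrial pore protein, is not a member and is named because the study measured it. The study did so, together with Trp53 and Cdkn1a, in acute DEN injury of liver, at a higher dose and a much earlier time, and not in these tumors. In that injury it reported induction in WT liver and no significant Trp53 induction in Nr2e3-/- liver. For the tumors it reported lower levels of p53 target microRNAs, which are not members. In the tumor libraries Bax was at 19.5, 16.4 and 15.8 normalized CPM in WT and at 14.96, 18.4 and 17.95 in Nr2e3-/- mice. The Bax log2 fold change was -0.011 (SE 0.14; edgeR adjusted p = 0.969).

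Triap1 (chromosome 5, 115341225 to 115343569, plus strand), which restrains apoptosome formation, was at 15.3, 16.4 and 12.9 normalized CPM in WT and at 18.4, 16.7 and 19.7 in Nr2e3-/- tumors. Its groups were separated by the narrow step from WT replicate 2 to Nr2e3-/- replicate 2, and the log2 fold change was 0.30 (SE 0.14; edgeR adjusted p = 0.258). Aen, a nuclease that digests DNA in dying cells, was at 0.47 (edgeR adjusted p = 0.254) and Trp53inp1, which modulates p53 and autophagy, at 0.22. Zmat3, an RNA-binding p53 target, was at 0.26. Below 0 were Phlda3, an inhibitor of AKT signalling, at -0.55, Perp, a membrane protein of p53-dependent death and cell adhesion, at -0.17, and Ei24, an endoplasmic reticulum protein, at -0.10.

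**Figure D3:**
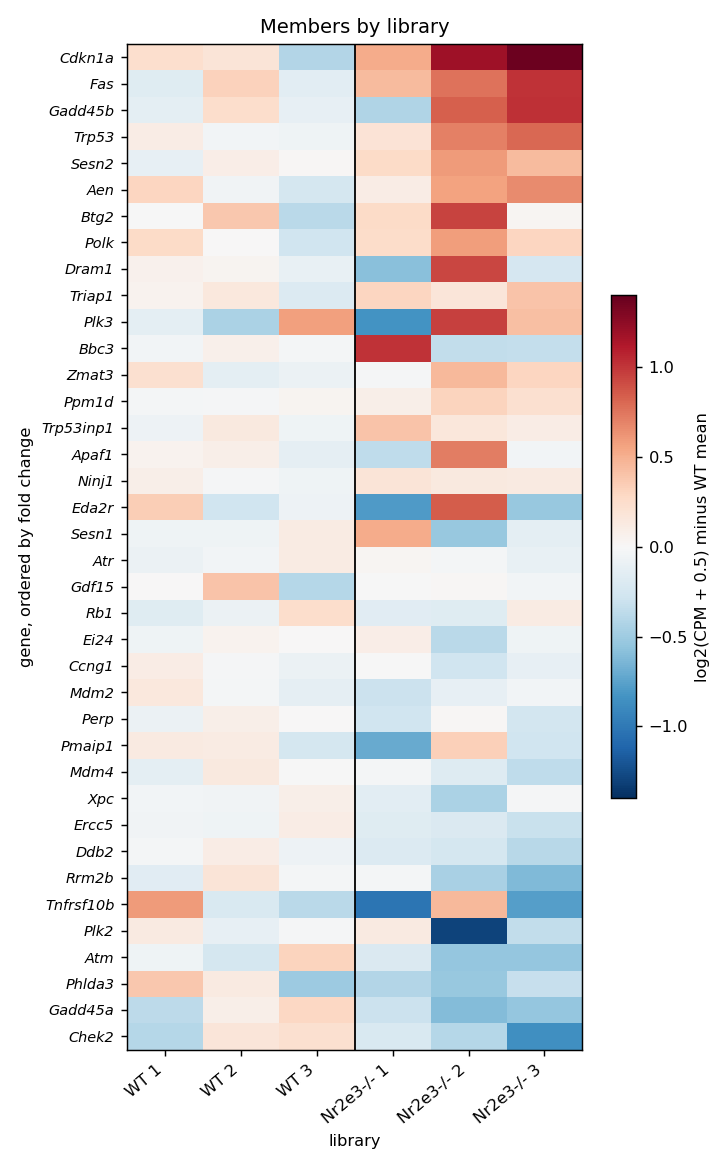
Each member (rows, ordered by fold change) in each library (columns), as log2(CPM + 0.5) minus the WT mean, with CPM after TMM scaling. Red is above and blue below. Cdkn1a, Fas, Gadd45b and Trp53 at the top are reddest in Nr2e3-/- replicates 2 and 3, and Bbc3 is red in replicate 1 alone.

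The genes of stress metabolism and of secreted or membrane proteins had 4 log2 fold changes above 0 and 1 below. Sesn2 (chromosome 4, 132492032 to 132510501, minus strand), a leucine sensor that restrains mTORC1 under stress, was at 5.61, 6.56 and 6.21 normalized CPM in WT and at 7.48, 9.47 and 8.49 in Nr2e3-/- tumors. The groups did not overlap, and the log2 fold change was 0.47 (SE 0.16; edgeR adjusted p = 0.165). Its relative Sesn1 gave 0.0031, with an interval of -0.62 to 0.63, and its libraries ran from 8.28 normalized CPM in Nr2e3-/- replicate 2 to 17.6 in replicate 1. Ninj1 (chromosome 13, 49187485 to 49196244, plus strand), which encodes a protein that ruptures the membrane of dying cells, was at 94.2, 88.2 and 85.3 normalized CPM in WT and at 101, 98.3 and 97.1 in Nr2e3-/- tumors.

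For Ninj1 the groups did not overlap, but the log2 fold change was only 0.15 (SE 0.093; edgeR adjusted p = 0.382). Gdf15, a secreted stress cytokine, was at -0.054 (95% interval -0.65 to 0.54). Dram1, a lysosomal protein that promotes autophagy, was at 0.33 with a wide interval of -0.92 to 1.59, and its highest library was Nr2e3-/- replicate 2.

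DNA repair genes had 4 log2 fold changes below 0 and 1 above, with a median of -0.24, and none had an unadjusted p under 0.05. Ddb2 (chromosome 2, 91211572 to 91236982, minus strand), which finds UV and bulky lesions for nucleotide excision repair, was at 13.3, 14.7 and 12.9 normalized CPM in WT and at 11.9, 11.4 and 10.3 in Nr2e3-/- tumors. All Nr2e3-/- libraries were below all WT libraries, with a log2 fold change of -0.28 (SE 0.12; edgeR adjusted p = 0.243). Ddb2 exons share 652 bases with Acp2 on the opposite strand.

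Ercc5 (chromosome 1, 44147744 to 44181260, plus strand), the XPG nuclease that makes the 3′ cut around a lesion, was at 16.3, 16.3 and 18.2 normalized CPM in WT and at 14.96, 14.7 and 13.5 in Nr2e3-/- tumors. The groups did not overlap, and the Ercc5 log2 fold change was -0.24 (SE 0.11; edgeR adjusted p = 0.274). Xpc, the general lesion sensor, was at -0.20 and Rrm2b, the p53-inducible ribonucleotide reductase subunit that supplies nucleotides for repair, at -0.40. Polk, a polymerase that copies past lesions, was the member of this group above 0, at 0.39 (edgeR adjusted p = 0.275).

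Levels of the members can be ordered after division of normalized CPM by exon length. In WT tumors they ran from 0.284 CPM per kb for Tnfrsf10b to 56.8 for Ninj1, with a median of 2.09, and Perp and Ei24 followed Ninj1. Of the 37 neighbouring pairs in that order, 25 lay within 1 SD of each other. In normalized CPM, 22 members averaged at least 10 in WT tumors and 9 averaged under 5, and the widest 3 intervals above (Tnfrsf10b, Dram1 and Eda2r) belonged to those low members. Nr2e3-/- replicate 2 was the highest of the 6 libraries for 10 members and the lowest for 9.

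The calls depended on Nr2e3-/- replicate 1 and on the test, as the plot of adjusted p by setting shows. Leaving out that library, edgeR gave 5 members an adjusted p under 0.05, all higher: Trp53 (log2 fold change 0.78, adjusted p = 0.00655), Cdkn1a (1.30, 0.0103), Fas (0.90, 0.0198), Gadd45b (1.10, 0.0221) and Sesn2 (0.56, 0.0397). In that fit 12.2% of all tested genes were called higher and 9.65% lower, so 5 of 38 members is near the background and no member was called lower.

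DESeq2 with all libraries called 3 members higher, Cdkn1a (adjusted p = 0.00709), Fas (0.0222) and Trp53 (0.0438), where it called 4.98% of all tested genes higher and 3.25% lower. Limma-voom with sample quality weights called 4 higher, Trp53 (adjusted p = 0.0189), Cdkn1a (0.0192), Fas (0.0242) and Sesn2 (0.0475), where it called 9.48% of all tested genes higher and 7.91% lower. Trp53, Cdkn1a, Fas and Sesn2 had log2 fold changes above 0 under all 13 alternatives. They ran from 0.49 to 0.78 for Trp53, 0.89 to 1.30 for Cdkn1a, 0.62 to 0.95 for Fas and 0.38 to 0.56 for Sesn2. Atm and Gadd45a stayed below 0, from -0.57 to -0.28 and from -0.72 to -0.39. In all, 26 members kept their sign under every alternative. The alternatives refit the same libraries from which these genes were picked, so a held sign does not set them apart.

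**Figure D4:**
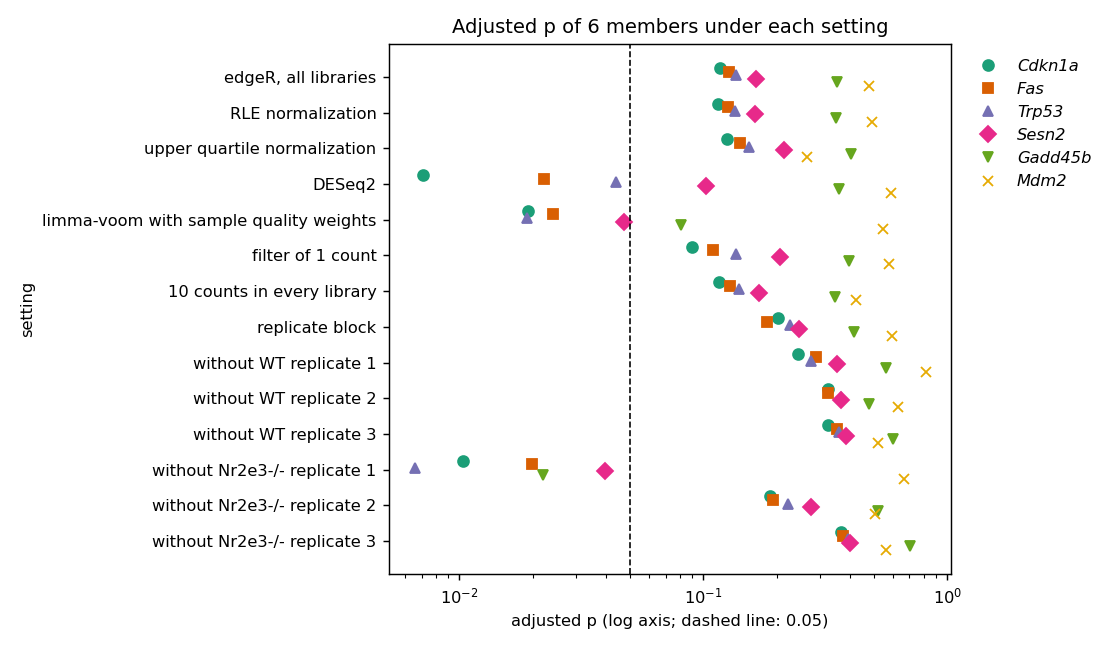
Adjusted p (x axis, log scale; dashed line at 0.05) of 6 members under the reported fit and each of 13 alternatives (rows). Trp53, Cdkn1a and Fas lie left of the line under DESeq2, limma-voom and the fit without Nr2e3-/- replicate 1. Sesn2 does so under limma-voom and that fit, and Gadd45b under that fit alone. Mdm2 stays right of it in all rows.

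Lists of related genes, written by hand, place the members beside the rest of the pathway, and no gene of them had an adjusted p under 0.05. At an unadjusted edgeR p under 0.05, 11.8% of all tested genes were higher and 9.72% lower, the background for each list count below. The list of further p53 targets held 30 genes, of which 29 were found in the count table. Dinol, the gene of the long noncoding RNA DINO that the study measured, was not found. Of 26 tested further p53 targets, 1 was higher and 2 were lower at an unadjusted edgeR p under 0.05, with a median log2 fold change of -0.10. These were Kitl, the ligand of the KIT receptor, at 0.89 (edgeR adjusted p = 0.119), Psrc1, a spindle protein, at -1.68 (adjusted p = 0.111) and Steap3, an iron reductase, at -0.48 (adjusted p = 0.142). Of 16 tested modifiers and cofactors of p53, 1 was higher and 2 were lower. They were Rpl23, a ribosomal protein that binds MDM2, at 0.24, Cdkn2a, the locus of the MDM2 antagonist ARF, at -0.97 (edgeR adjusted p = 0.13), and Hipk2, a kinase of p53, at -0.42.

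Cdkn2a was at 1.498, 1.35 and 1.18 normalized CPM in WT and at 0.662, 0.780 and 0.595 in Nr2e3-/- tumors, with no overlap. These levels rest on 39, 40 and 34 counts in WT and on 10, 21 and 11 in Nr2e3-/- libraries. The counts are per gene and do not separate transcripts of the locus. Among 21 damage sensors and checkpoint mediators, 3 were higher and 3 lower. Wee1, the kinase that delays mitosis, was at -0.65 (edgeR adjusted p = 0.113), Rad17, which loads the checkpoint clamp, at 0.49, and Rad50, part of the break-sensing MRN complex, at -0.44. Of 15 nucleotide excision repair genes only the TFIIH subunit Gtf2h1 had an unadjusted p under 0.05, at 0.52 (edgeR adjusted p = 0.2).

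Of 12 apoptosome and caspase genes 3 were higher and 0 lower at an unadjusted edgeR p under 0.05. They made up 25% of the list, beside 21.5% of all tested genes. The 3 were Bcl2l1, Mcl1 and Xiap, which encode inhibitors of cell death. Log2 fold changes were above 0 for 9 genes of the list and below 0 for 3. Those above 0 included genes that promote cell death, such as Casp8 at 0.46, Cycs at 0.40 and Bak1 at 0.32. Bcl2l1, which encodes BCL-XL, was at 64.3, 59.4 and 39.7 normalized CPM in WT and at 72.6, 177 and 138 in Nr2e3-/- tumors. The Bcl2l1 log2 fold change was 1.25 (edgeR adjusted p = 0.127), and Nr2e3-/- replicate 1 again lay nearest to WT. Mcl1 was at 0.48 and Xiap at 0.32.

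**Figure D5:**
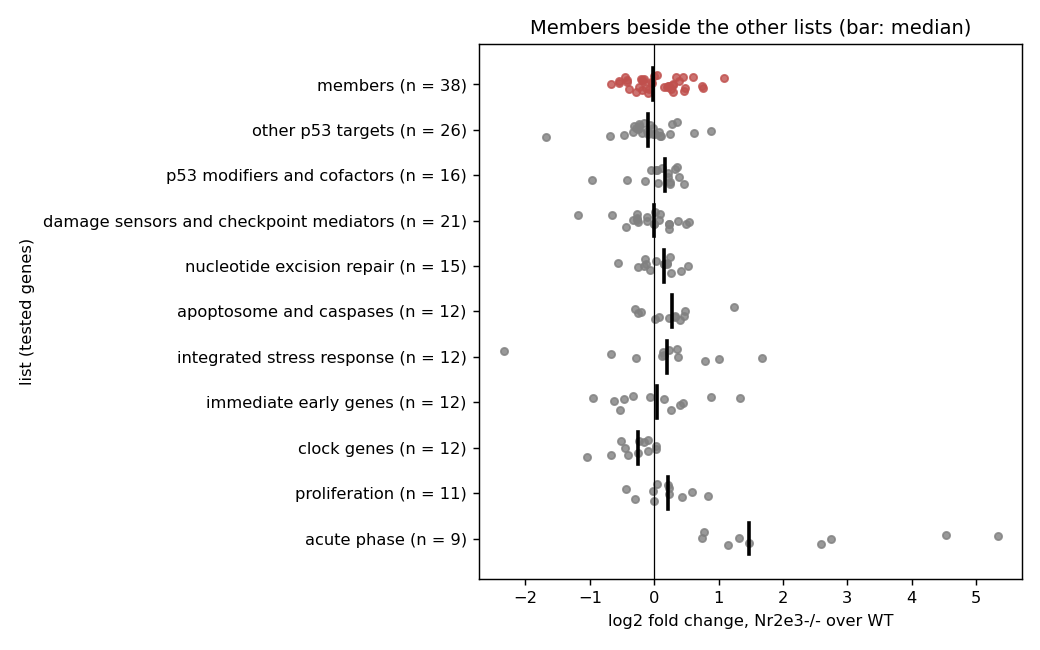
Log2 fold change, Nr2e3-/- over WT (x axis), of the tested genes of each list (rows, with n), with the median as a black bar and the 38 members in red. The member median is -0.016 and the acute phase median 1.47.

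Levels of other gene groups are given beside those of the members. Of 9 acute phase genes, which hepatocytes switch on in inflammation, 7 were higher and 0 lower at an unadjusted edgeR p under 0.05, and the median log2 fold change was 1.47. Saa1 was at 49.3, 28.0 and 19.9 normalized CPM in WT and at 138, 1028 and 1090 in Nr2e3-/- tumors, the same order of libraries as Cdkn1a. Neutrophil markers, 4 of 5 found, summed to 1.56 to 3.08 CPM in WT and to 2.25, 20.6 and 13.4 CPM in Nr2e3-/- replicates 1 to 3. Their part in the values of Trp53, Cdkn1a and Fas was not tested.

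Bile duct markers, 6 of 6 found, summed to 57.3 to 119 CPM in WT and to 69.1, 429 and 185 CPM in Nr2e3-/- replicates 1 to 3. Macrophage markers, 6 of 6 found, summed to 272 to 346 CPM in WT and to 236, 620 and 311 CPM in Nr2e3-/- tumors. T and B cell markers were low throughout, at 2.38 to 6.29 CPM in WT and 1.24 to 3.71 CPM in Nr2e3-/- tumors over 6 of 6 genes. Stromal markers summed to 224 to 243 CPM in WT and 144 to 252 CPM in Nr2e3-/- tumors, endothelial markers to 262 to 277 and 228 to 276 CPM, and red cell genes to 142 to 202 and 229 to 322 CPM. Of 6 pancreas markers 5 were at 0 in all libraries, and liver tumor markers ran from 174 to 744 CPM in WT and from 134 to 404 CPM in Nr2e3-/- tumors. What part these markers had in the members' values was not tested.

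Proliferation genes gave 1 higher and 0 lower of 11 tested at an unadjusted edgeR p under 0.05, with a median of 0.22. That gene was Rrm2, the replicative relative of Rrm2b, at 0.84 (edgeR adjusted p = 0.145). Integrated stress response genes, which can also drive Sesn2, gave 2 higher and 2 lower of 12, immediate early genes 1 higher and 3 lower of 12, and clock genes 0 higher and 2 lower of 12. The part of these programs in the values of Sesn2, Btg2 or Plk3 was not tested.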

How the data were processed

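RNA-seq counts of liver tumors from 3 WT and 3 Nr2e3-/- mice were used, grouped by the genotype in the labels; dose, age and time point came from the study's methods. The authors aligned reads to mm10 with TopHat and counted them per gene with FeatureCounts; the deposited values used here are raw counts, with no normalization. The authors' normalized table and their table of fold changes and p-values from their own comparison were not used. Counts were filtered with filterByExpr (minimum count 10, minimum total 15), scaled by TMM and tested with the two-sided quasi-likelihood F test of edgeR 4.0.16 in R 4.3.3, with Benjamini-Hochberg adjustment over 13572 genes. Intervals are 95%. Alternatives used DESeq2 1.42.0, limma 3.58.1, other scalings and filters, the replicate number as a block, and leaving out each library. Scripts were tested on simulated data. Figures used matplotlib 3.10.9.

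The members and the gene lists were chosen with earlier results of these data known. Per-library values were given for members with an unadjusted p under 0.05, for members whose groups did not overlap and for Mdm2; from other lists, up to 3 genes by smallest p, and Bax always. Symbols were matched to GENCODE M21 for positions and exon lengths, where 22795 matched as written and 870 through a synonym, and 398 found no entry. Tigar and Adgre1 were listed under older symbols. In the table, 27 rows carry a date in place of a symbol. RefSeq promoter windows were found for 29 of 38 members. Total counts were 15376261 to 28690279 per library, and the errors given hold both counting error and the spread between libraries.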

Additional observations from a re-analysis of the deposited data

How the results depend on the processing

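Across 13 alternatives the median log2 fold change of the tested members (38, or 36 with 10 counts in every library) stayed between -0.095 and 0.041, and 26 members kept their sign. The other 12 had main changes of at most 0.42 in size; the cause was not tested. The number of all genes with an adjusted p under 0.05 was 13 as reported, 8 with upper quartile scaling, 1095 with DESeq2, 2360 with limma-voom, 70 with a filter of 1 count, 7 with 10 counts in every library, and 0 to 3022 when 1 library was left out (3022 without Nr2e3-/- replicate 1). Members called numbered 3 with DESeq2, 4 with limma-voom and 0 to 5 when 1 library was left out (5 without Nr2e3-/- replicate 1); they were 0 in the other settings. At an unadjusted p under 0.05, higher members numbered 7 with limma-voom (18.4%, beside 18.8% of all tested genes) and 3 to 7 with 1 library left out (all tested genes 6.67% to 19.9%). Lower members numbered 4 with upper quartile scaling (all tested genes 13.1%), 5 with limma-voom (17.9%) and 0 to 5 with 1 library left out (5.47% to 17.8%). Members without overlap were 5 lower with upper quartile scaling (all tested genes 17.6%), and with 1 library left out 7 to 11 higher (15.8% to 28%) and 3 to 10 lower (15% to 26.9%). Without Nr2e3-/- replicate 1, 11 members (28.9%) were higher and 10 (26.3%) lower without overlap, beside 28% and 26.9% of all tested genes. Upper quartile scaling gave medians of -0.095 for all members, -0.051 for p53 and its regulators and -0.32 for repair. Limma-voom gave -0.081 for all members, -0.099 for cell death and -0.030 for stress metabolism. With 1 library left out the medians ran from 0.00093 to 0.11 for regulators, from -0.57 to -0.28 for kinases (the latter without WT replicate 3) and from 0.022 to 0.24 for cell death (the former without Nr2e3-/- replicate 2).

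Signs changed as follows. Limma-voom gave 0.035 for Rb1, -0.24 for Bbc3, -0.25 for Eda2r, -0.16 for Sesn1 and -0.030 for Dram1. Upper quartile scaling gave -0.054 for Eda2r and -0.071 for Sesn1, and 10 counts in every library gave -0.013 for Sesn1. With 1 library left out, log2 fold changes ran from -0.075 to 0.024 for Atr, -0.14 to 0.66 for Plk3, -0.18 to 0.057 for Rb1, -0.41 to 0.56 for Bbc3, -0.66 to 0.091 for Pmaip1, -0.21 to 0.43 for Apaf1, -1.45 to 0.063 for Tnfrsf10b, -0.80 to 0.36 for Eda2r, -0.20 to 0.022 for Ei24, -0.34 to 0.23 for Sesn1, -0.26 to 0.20 for Gdf15 and -0.62 to 0.68 for Dram1.

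Deviations from the group mean correlated at -0.10, 0.24 and 0.0081 between same-numbered libraries, and at -0.28 to 0.25 between differently numbered ones. With 3 libraries per group these values cannot decide whether the replicate numbers pair the libraries. With the replicate number as a block 0 genes had an adjusted p under 0.05. At an unadjusted edgeR p under 0.05 that fit had 5 members higher (13.2%, beside 8.97% of all tested genes) and 0 lower (beside 9%). Its log2 fold changes were -0.16 for Eda2r and -0.057 for Sesn1. Depth was least for Tnfrsf10b and Dram1, with 7 and 8 counts in Nr2e3-/- replicate 1.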

Other observations

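Members that were highest in Nr2e3-/- replicate 2 and not in replicate 3 included Apaf1, at 4.37, 9.80 and 5.57 normalized CPM in Nr2e3-/- replicates 1 to 3, Eda2r, at 1.72, 6.39 and 2.16, and Dram1, at 0.530, 2.45 and 0.811. Mki67, a proliferation marker, was at 2.52, 12.9 and 3.03 normalized CPM in the same libraries. Atf3, a stress-induced factor, was at 2.45, 14.0 and 3.57. These genes were chosen after their values were seen, and no relation between them was tested.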
